A study of Homo sapiens with 4 samples.

Results

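Arrested and senescent cells secrete a known set of inflammatory proteins, and 10 genes for such cytokines and chemokines were followed in glioblastoma cells. These genes were *IL6*, *IL11*, *IL24*, *LIF*, *CXCL1*, *CXCL2*, *CXCL3*, *CXCL8*, *CCL2* and *CSF2*. They were chosen by name, with earlier results of these data known, as were the gene lists used below. Each of the 10 was found once among the 58213 Ensembl gene IDs that all 4 libraries listed, of which 57875 are in GENCODE 29. All 10 are protein-coding genes of GRCh38 and were listed with whole fragment counts in every library.

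RNA-seq was made from U87MG, an established human glioblastoma line, and from R-U87MG, its derivative resistant to temozolomide (TMZ), the alkylating drug used against this tumour. R-U87MG cells, which were kept in medium with 50 µM TMZ, received non-targeting siRNA (si-NC) or siRNA against *HDAC6*, a mostly cytoplasmic lysine deacetylase (si-HDAC6). Parental U87MG cells, for which no TMZ is described, received si-NC or siRNA against the long noncoding RNA *LINC00461* (si-LINC00461). RNA was isolated 72 h after the siRNA was given, and each of the 4 conditions is 1 library. The *HDAC6* siRNA was a pool of sequences, whereas a single target sequence is listed for *LINC00461*, and the siRNA concentration of these libraries is not given in the sources used here. No allele or other genetic change was described for either line, and every culture was transfected.

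The 10 proteins belong to a few families. Interleukin-6, interleukin-11 and LIF bind receptors that share the gp130 chain, encoded by *IL6ST*, and signal through JAK kinases to the transcription factor STAT3. CXCL1, CXCL2, CXCL3 and CXCL8 (interleukin-8) are CXC chemokines that attract neutrophils through the receptors CXCR1 and CXCR2, CCL2 attracts monocytes through CCR2, interleukin-24 is a member of the interleukin-10 family, and *CSF2* encodes GM-CSF, a growth factor of granulocytes and macrophages. In many cells NF-kB, activated by interleukin-1, TNF or Toll-like receptors, induces these genes, their mRNAs are short-lived through AU-rich elements in the 3′ UTR, and glioma cells are known to make several of them.

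Levels are fragment counts scaled to the library total, as CPM, the usual depth-scaled unit, and per kb of exon where genes are compared with each other. A ratio is the log2 ratio of counts plus 0.5 after TMM scaling of the pair of libraries, which understates changes of genes with few counts, and its brackets hold the exact binomial 95% interval. A gene was compared at a mean CPM of at least 1 and called higher or lower at a ratio of at least 2-fold. With 1 library per condition no replicates exist and no condition could be tested, and intervals cover counting error of these libraries only. PCR copies are not independent molecules, so that the intervals can be too narrow even for counting error. In bulk RNA, more cells of a kind and more RNA per cell cannot be told apart.

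The libraries held 12596072 to 20027866 counts, so that 3 counts, the limit that a count of 0 allows, stand for 0.150 to 0.238 CPM. *HDAC6* was at 17.8 CPM with si-NC and 5.32 CPM with si-HDAC6 in R-U87MG, a ratio of −1.74 (−2.16 to −1.36). *LINC00461* was at 18.1 CPM with si-NC and 4.11 CPM with si-LINC00461 in U87MG, a ratio of −2.12 (−2.51 to −1.76), and it also was at 9.26 against 6.35 CPM under si-HDAC6, a ratio of −0.55 (−0.96 to −0.15). In U87MG, *HDAC6* was at 32.4 CPM with si-NC and 30.4 CPM with si-LINC00461. *HDAC6* (−1.13 (−1.33 to −0.93)) and *LINC00461* (−1.23 (−1.51 to −0.96)) were lower in R-U87MG against U87MG. Their intervals reach within 2-fold, and scaling by total counts moved the median of all genes there by 0.26. Of 12 glioma line markers, *VIM*, *CD44*, *TNC* and *SPARC* were among the abundant ones in all 4 libraries, whereas *GFAP*, *SOX2* and *S100B* had at most 13 counts. Among these markers, *CHI3L1* was higher (5.17) and *EGFR* lower (−1.10) under si-LINC00461, *OLIG2* was higher (2.58, above 1 CPM in R-U87MG only) and *CHI3L1* (−1.51) and *SPARC* (−1.03, but −0.76 with total counts) were lower in R-U87MG against U87MG, and none passed 2-fold under si-HDAC6, from −0.14 (*EGFR*) to 0.71 (*OLIG2*). Of 12 markers of blood and vessel cells, 9 to 11 had 10 counts or fewer in each library, and the list summed to 4.21, 3.73, 3.59 and 26.8 CPM in R-U87MG si-NC, R-U87MG si-HDAC6, U87MG si-NC and U87MG si-LINC00461. Without *PECAM1*, an adhesion molecule of endothelial cells that had 27, 16, 52 and 433 counts in that order, the sums were 2.58, 2.46, 0.999 and 2.48 CPM, and the leukocyte gene *PTPRC* had at most 3 counts. *PECAM1* alone of these passed 2-fold, with a ratio of 3.23 (2.83 to 3.69) under si-LINC00461, and the part of such cells in the values was not tested.

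All 10 genes were detected above 3 counts in all 4 libraries, over a wide range of levels. *CXCL8* had the highest level per length in both R-U87MG libraries, at 138 CPM per kb with si-NC and 170 CPM per kb with si-HDAC6. *LIF* led in both parental libraries, at 50.3 CPM per kb with si-NC and 177 CPM per kb with si-LINC00461. The genes at the low end were *IL24*, *CCL2* and *CSF2*, none of which exceeded 2.36 CPM per kb, except *CSF2* at 6.03 CPM per kb in U87MG si-NC.

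The order of the levels was nearly the same in both R-U87MG libraries. In R-U87MG si-NC, *CXCL8* was followed by *LIF* and *CXCL2*, at 39.2 and 36.4 CPM per kb with overlapping counting intervals, and then by *IL11* at 18.4, *CXCL3* at 9.37, *IL6* at 6.51 and *CXCL1* at 4.59 CPM per kb. *CCL2*, *IL24* and *CSF2* closed the list at 2.36, 1.73 and 1.15 CPM per kb, each overlapping the next. In U87MG si-NC, *LIF* and *CXCL8* (47.4 CPM per kb) overlapped, and *CXCL2*, *IL11*, *IL6*, *CSF2* and *CXCL1*, from 10.2 down to 4.62 CPM per kb, overlapped each with its neighbour. In U87MG si-LINC00461, *IL6* took the second place at 43.1 CPM per kb, ahead of *CXCL8* at 35.2 and *IL11* at 16.6 CPM per kb, and the intervals of the upper 7 genes did not overlap.

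**Figure D1:**
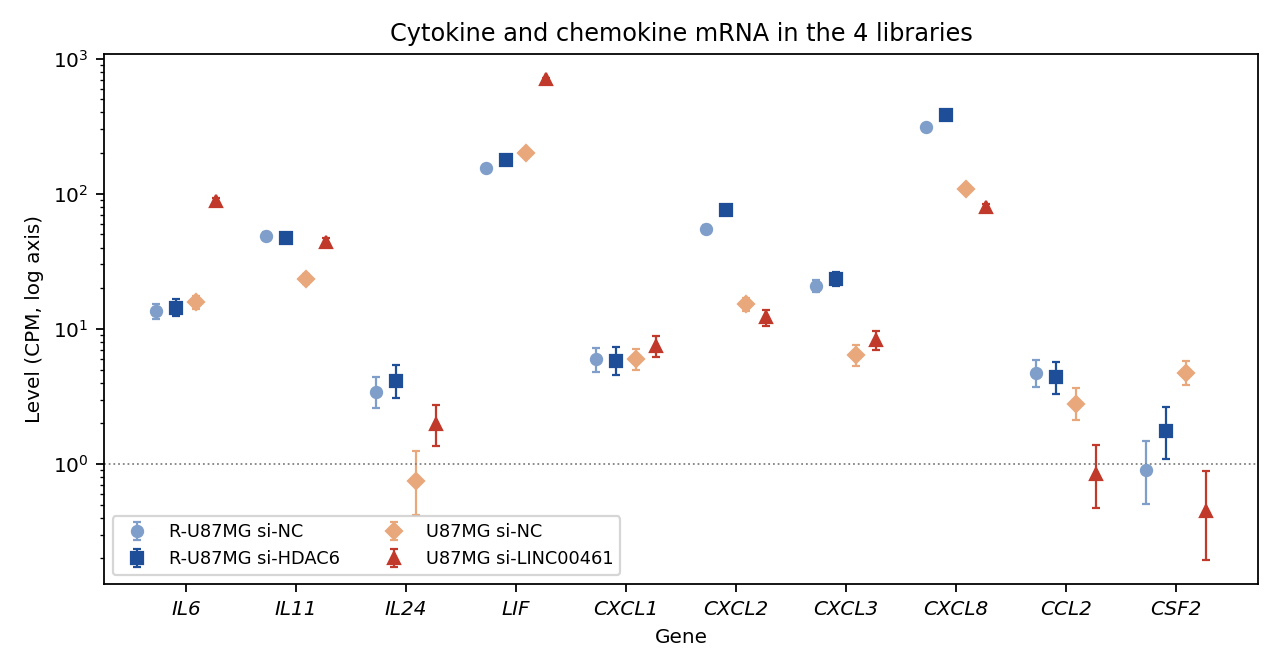
Level of each of the 10 genes (CPM, log axis) in the 4 libraries, 1 point per library, with exact Poisson 95% intervals for counting error and a dotted line at 1 CPM. *IL6* and *LIF* are highest in U87MG si-LINC00461, at 89.2 and 704 CPM, and *CXCL2*, *CXCL3* and *CXCL8* are higher in both R-U87MG libraries than in both U87MG libraries.

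Under si-HDAC6, none of the 10 genes reached 2-fold in either direction. Over all 13120 genes compared, 0.694% were at least 2-fold higher and 0.747% at least 2-fold lower, so that few calls of either kind were made in this comparison at all. The ratios of the 10 genes ran from −0.11 for *CCL2* to 0.93 for *CSF2*, and their median was 0.17, beside −0.01 over all genes. *CSF2* reached 1 CPM with si-HDAC6 only, so that it was compared through the library in which it was high. The next highest ratio was 0.45, for *CXCL2*. The interval lay above 0 for *LIF*, *CXCL2* and *CXCL8*, lay below 0 for none, and held 0 for the other 7. Over all genes compared, 13.8% had an interval above 0 and 16.4% below. These genes also had the most counts of the 10 in both libraries, and intervals narrow as counts rise.

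Under si-LINC00461, 3 of the 10 genes were at least 2-fold higher and 2 at least 2-fold lower. *IL6*, *LIF* and *IL24* were higher, *CCL2* and *CSF2* were lower, and *IL11*, *CXCL1*, *CXCL2*, *CXCL3* and *CXCL8* stayed within 2-fold. Over all 13210 genes compared, 5.42% were at least 2-fold higher and 8.17% at least 2-fold lower. The median of the 10 genes was 0.36, beside −0.00 over all genes, and 3 genes (*IL6*, *LIF* and *CSF2*) had an interval wholly beyond 2-fold. Over all 13210 genes compared, 380 had an interval wholly beyond 2-fold on the higher side and 631 on the lower side. *IL24*, *CCL2* and *CSF2* reached 1 CPM in 1 library of this pair only, so that they could be compared only through the library in which they were high, and without them 2 genes were higher and 0 lower.

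In R-U87MG si-NC against U87MG si-NC, 4 of the 10 genes were at least 2-fold higher and 1 was at least 2-fold lower. *CXCL2*, *CXCL3*, *CXCL8* and *IL24* were higher in the resistant cells and *CSF2* was lower. Over all 13349 genes compared, 11.2% were at least 2-fold higher and 15.0% at least 2-fold lower, and the median of the 10 genes was 0.64, beside 0.02 over all genes. *IL24* and *CSF2* reached 1 CPM in 1 of these libraries only, and without them 3 genes were higher and 0 lower. Resistance, TMZ in the medium and any difference in the run of the experiment cannot be told apart here. Scaling by total counts in place of TMM moved the median of all genes by 0.26. This comparison shares R-U87MG si-NC with the si-HDAC6 comparison and U87MG si-NC with the si-LINC00461 comparison.

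**Figure D2:**
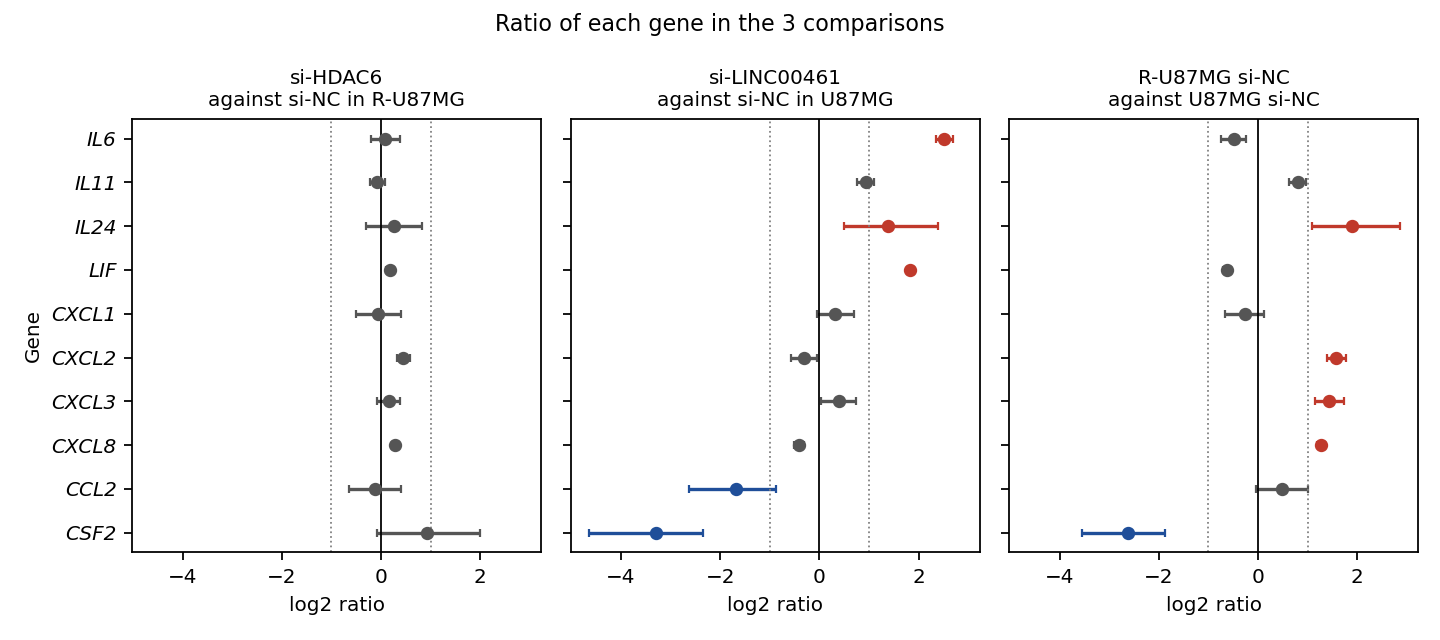
The log2 ratio of each gene in the 3 comparisons, with exact binomial 95% intervals for counting error; dotted lines mark 2-fold, red points are at least 2-fold higher and blue points at least 2-fold lower. The si-HDAC6 ratios lie between −0.11 and 0.93 (*CSF2*), whereas the si-LINC00461 ratios run from −3.30 for *CSF2* to 2.51 for *IL6*. *CSF2* reached 1 CPM in 1 library only of each pair.

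*IL6*, on chromosome 7 from 22725884 to 22732002 on the plus strand, encodes the best known of the gp130 cytokines. It had 224 counts (13.5 CPM) in R-U87MG si-NC, 182 (14.4 CPM) in R-U87MG si-HDAC6, 316 (15.8 CPM) in U87MG si-NC and 1585 (89.2 CPM) in U87MG si-LINC00461. The si-LINC00461 library thus stood apart from the other 3, which lay close together. Its ratio to si-NC was 2.51 (2.34 to 2.69), a level 5.70-fold higher and above the ratios of 99.4% of the genes compared. The ratio was 0.09 (−0.20 to 0.38) under si-HDAC6 and −0.49 (−0.75 to −0.24) in R-U87MG against U87MG.

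*LIF*, leukemia inhibitory factor, is a minus-strand gene of chromosome 22 (30240447 to 30246851). It had 2586 counts (155 CPM) in R-U87MG si-NC, 2245 (178 CPM) in R-U87MG si-HDAC6, 3999 (200 CPM) in U87MG si-NC and 12517 (704 CPM) in U87MG si-LINC00461. As for *IL6*, 1 library was far above the others. The ratio under si-LINC00461 was 1.83 (1.78 to 1.89), a 3.56-fold higher level, and that under si-HDAC6 was 0.19 (0.11 to 0.27). Between the si-NC libraries of the lines the ratio, R-U87MG over U87MG, was −0.63 (−0.70 to −0.55).

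*IL11*, a minus-strand gene of chromosome 19 (55364389 to 55370463), encodes the third gp130 cytokine of the group. Its counts were 817 (49.1 CPM), 591 (46.9 CPM), 471 (23.5 CPM) and 788 (44.3 CPM) in R-U87MG si-NC, R-U87MG si-HDAC6, U87MG si-NC and U87MG si-LINC00461. Here U87MG si-NC was the low library and the other 3 were alike. The ratio of 0.93 (0.76 to 1.10) under si-LINC00461 stayed just under 2-fold, as did 0.80 (0.63 to 0.96) in R-U87MG against U87MG, and the ratio under si-HDAC6 was −0.08 (−0.23 to 0.08).

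The 3 gp130 cytokines therefore had higher levels with si-LINC00461 than with si-NC, by unequal amounts. Within a library, where no scaling enters, there were 0.0790 *IL6* counts per *LIF* count in U87MG si-NC and 0.127 in U87MG si-LINC00461, 1.60 times as many (1.41 to 1.82). Under si-HDAC6 the same quotient went from 0.0866 to 0.0811, a factor of 0.936 (0.759 to 1.15) whose interval holds 1.

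*IL24*, on chromosome 1 from 206897443 to 206904139 on the plus strand, encodes a cytokine of the interleukin-10 family that signals through heterodimers of IL20RB with IL20RA or IL22RA1. It was among the low genes, with 57 counts (3.43 CPM) in R-U87MG si-NC, 52 (4.13 CPM) in R-U87MG si-HDAC6, 15 (0.749 CPM) in U87MG si-NC and 35 (1.97 CPM) in U87MG si-LINC00461. U87MG si-NC was the lowest library. The ratios were 1.38 (0.50 to 2.39) under si-LINC00461, 1.89 (1.09 to 2.86) in R-U87MG against U87MG and 0.26 (−0.31 to 0.83) under si-HDAC6. At this depth the interval of the si-LINC00461 ratio ran from 1.41-fold to 5.24-fold.

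*CXCL8*, *CXCL1*, *CXCL3* and *CXCL2* lie in this order on chromosome 4, *CXCL8* and *CXCL1* on the plus strand and the other two on the minus strand. *CXCL8* spans 73740506 to 73743716, *CXCL1* 73869393 to 73871242, *CXCL3* 74036589 to 74038807 and *CXCL2* 74097035 to 74099293. *CXCL8* had 5211 counts (313 CPM) in R-U87MG si-NC, 4862 (386 CPM) in R-U87MG si-HDAC6, 2158 (108 CPM) in U87MG si-NC and 1423 (80.0 CPM) in U87MG si-LINC00461. Both R-U87MG libraries lay above both U87MG libraries. The ratio was 1.28 (1.20 to 1.35) in R-U87MG against U87MG, 0.29 (0.23 to 0.35) under si-HDAC6 and −0.41 (−0.51 to −0.32) under si-LINC00461.

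*CXCL2* followed the same order of libraries, with 909 (54.6 CPM), 948 (75.3 CPM), 305 (15.2 CPM) and 216 counts (12.2 CPM) in R-U87MG si-NC, R-U87MG si-HDAC6, U87MG si-NC and U87MG si-LINC00461. Its ratio of 0.45 (0.32 to 0.58) under si-HDAC6 was 1.37-fold and above those of 95.3% of the genes compared. The ratio under si-LINC00461 was −0.31 (−0.57 to −0.05), and that in R-U87MG against U87MG was 1.58 (1.39 to 1.77). Within a library, the count of *CXCL2* per *CXCL8* count was 0.174, 0.195, 0.141 and 0.152. The factor from U87MG si-NC to R-U87MG si-NC was 1.23 (1.07 to 1.42), and that from si-NC to siRNA was 1.12 (1.01 to 1.24) under si-HDAC6 and 1.07 (0.887 to 1.30) under si-LINC00461, of which the last alone has an interval that holds 1.

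*CXCL3* had 346 (20.8 CPM), 295 (23.4 CPM), 128 (6.39 CPM) and 147 counts (8.27 CPM) in the same order of libraries. It too was higher in R-U87MG than in U87MG, at a ratio of 1.43 (1.14 to 1.74). The ratios under si-HDAC6 and si-LINC00461 were 0.16 (−0.07 to 0.39) and 0.39 (0.04 to 0.74). *CXCL1* was the chemokine with the most even level, with 99 (5.95 CPM), 73 (5.80 CPM), 120 (5.99 CPM) and 132 counts (7.43 CPM). None of its 3 ratios had an interval that left out 0, at −0.27 (−0.67 to 0.12) in R-U87MG against U87MG, −0.05 (−0.50 to 0.40) under si-HDAC6 and 0.32 (−0.04 to 0.69) under si-LINC00461.

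The quotient of *CXCL1* to *CXCL2* counts therefore differed between the lines. It was 0.393 in U87MG si-NC and 0.109 in R-U87MG si-NC, a factor of 0.277 (0.204 to 0.376), and 0.611 in U87MG si-LINC00461. These genes are near copies of each other: of the stretches of 50 bases in their GENCODE transcripts, 4.81% of those of *CXCL1*, 12.5% of *CXCL2* and 6.01% of *CXCL3* also occur in another of these genes, and the division of such fragments is in the deposited values. No such stretch of *CXCL8* occurs in another gene.

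The promoters of these chemokines are shown because *CXCL1*, *CXCL2* and *CXCL3* hold the same letters at the same distance from the start site and were not alike in their ratios between the lines. RefSeq (GRCh38.p14) gave 300 bases, from 250 before to 50 after the start site, for 8 of the 10 genes, and none was matched for *LIF* and *CCL2*. Each line gives 79 bases of the gene's own strand around the letters GGNNTTTCC, a form of the NF-kB motif, in capitals. The windows are chr4:73869305-73869383 (plus strand), chr4:74099205-74099283 (minus), chr4:74038699-74038777 (minus), chr4:73740443-73740521 (plus) and chr7:22727093-22727171 (plus).
CXCL1: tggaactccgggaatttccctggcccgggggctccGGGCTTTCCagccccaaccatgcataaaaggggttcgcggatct
CXCL2: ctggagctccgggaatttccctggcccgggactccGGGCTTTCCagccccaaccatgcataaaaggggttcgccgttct
CXCL3: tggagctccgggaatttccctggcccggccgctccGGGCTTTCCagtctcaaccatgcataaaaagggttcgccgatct
CXCL8: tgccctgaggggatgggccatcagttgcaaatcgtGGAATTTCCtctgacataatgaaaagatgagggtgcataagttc
IL6: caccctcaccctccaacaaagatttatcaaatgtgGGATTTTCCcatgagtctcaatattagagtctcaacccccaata

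Searched on both strands, these letters occurred in the promoters of 5 of the 8 genes and in 6.26% of the 35116 RefSeq promoters of this length. *CXCL1*, *CXCL2* and *CXCL3* each held 2 copies, of which the nearer to the start site, shown in capitals, began 53 bases before it in all 3. The match began 91 bases before the start site of *CXCL8* and 72 bases before that of *IL6*, and the promoters of *IL11*, *IL24* and *CSF2* held none of these letters. Compared position by position without gaps, the windows of *CXCL1* and *CXCL3* were identical at 72 of 79 bases (91.1%). Those of *CXCL1* and *CXCL2* were identical at 62 (78.5%), those of *CXCL2* and *CXCL3* at 57 (72.2%), and those of *CXCL8* and *CXCL1* at 27 (34.2%). The farther copy began 77 bases before the start site of *CXCL2* and 78 bases before those of *CXCL1* and *CXCL3*. Bases upstream of the capitals are thus out of step in pairs with *CXCL2*. This lowers their identity, so that the pairs cannot be ranked by it. These windows lie around the shared motif. Over the whole 300 bases without gaps, where pairs with *CXCL2* carry the same offset, the identity was lower. It was 68.7% for *CXCL1* and *CXCL3*, 51.7% for *CXCL1* and *CXCL2* and 48.3% for *CXCL2* and *CXCL3*.

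The AP-1 letters TGANTCA occurred once each in the promoters of *CXCL8* and *IL11* and in 7.71% of all promoters, searched on both strands. The C/EBP letters TTGCNNAA occurred once each in those of *IL6* and *CXCL2* and in 10.5% of all promoters. The letters TATAAA, searched on the gene's strand alone, occurred in that of *CXCL8* and in 7.33% of all. A match of letters is a description of the sequence and no measure of binding.

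Within 300 kb of these chemokines, a distance chosen after the data were seen, other genes of the locus had their own values. *CXCL5*, which encodes a further neutrophil chemokine, had 7, 7, 98 and 213 counts in R-U87MG si-NC, R-U87MG si-HDAC6, U87MG si-NC and U87MG si-LINC00461, the reverse order of the lines to *CXCL8*. *EREG*, the gene of the growth factor epiregulin, lies 266 kb from *CXCL2* and had 9863, 7894, 5020 and 35746 counts. *MTHFD2L*, a mitochondrial folate enzyme whose gene lies 14.9 kb from *CXCL2*, had 574, 435, 181 and 144 counts. *CXCL6*, *PF4*, *PF4V1* and *PPBP* had at most 1 count in any library, so that chemokine genes with and without counts lay side by side.

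*CCL2*, on chromosome 17 from 34255218 to 34257203 on the plus strand, encodes the monocyte chemokine MCP-1. It had 78 counts (4.69 CPM) in R-U87MG si-NC, 55 (4.37 CPM) in R-U87MG si-HDAC6, 56 (2.80 CPM) in U87MG si-NC and 15 (0.844 CPM) in U87MG si-LINC00461. The si-LINC00461 library was the low one, 3.20-fold below its control, at a ratio of −1.68 (−2.64 to −0.87). The other ratios were −0.11 (−0.64 to 0.40) under si-HDAC6 and 0.48 (−0.03 to 1.0) in R-U87MG against U87MG. The neighbouring monocyte and eosinophil chemokine genes *CCL7*, *CCL8*, *CCL11* and *CCL13* had at most 1 count in any library.

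*CSF2*, on chromosome 5 from 132073790 to 132076170 on the plus strand, was at 0.901 CPM (15 counts) in R-U87MG si-NC, 1.75 CPM (22) in R-U87MG si-HDAC6, 4.74 CPM (95) in U87MG si-NC and 0.450 CPM (8) in U87MG si-LINC00461. U87MG si-NC was the only library with more than 22 counts. The si-LINC00461 level was 9.87-fold below si-NC, at a ratio of −3.30 (−4.64 to −2.35), and 0.106% of the genes compared had a lower one. The ratio was −2.62 (−3.55 to −1.87) in R-U87MG against U87MG and 0.93 (−0.07 to 2.0) under si-HDAC6, an interval from 0.954-fold to 3.99-fold. *IL3*, the gene of a related growth factor 10.6 kb away, had no count in any library.

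The make-up of the group's RNA differed most between the lines and with si-LINC00461. The counts of the 10 genes summed to 622 CPM in R-U87MG si-NC, 740 CPM in R-U87MG si-HDAC6, 383 CPM in U87MG si-NC and 949 CPM in U87MG si-LINC00461. *CXCL8* made up 50.4% (49.4 to 51.4) and 52.1% (51.1 to 53.2) of these counts in the R-U87MG libraries, 28.2% (27.2 to 29.2) in U87MG si-NC and 8.44% (8.02 to 8.87) in U87MG si-LINC00461, with exact binomial 95% intervals. The share of *LIF* took the opposite order, at 25.0%, 24.1%, 52.2% and 74.2%, and that of *IL6* was 2.17%, 1.95%, 4.12% and 9.40%. Shares of the same sum depend on each other, so that a larger share of *LIF* leaves less for *CXCL8*. Within the library, there were 0.146 *IL6* counts per *CXCL8* count in U87MG si-NC and 1.11 in U87MG si-LINC00461, 7.61 times as many (6.61 to 8.76).

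**Figure D3:**
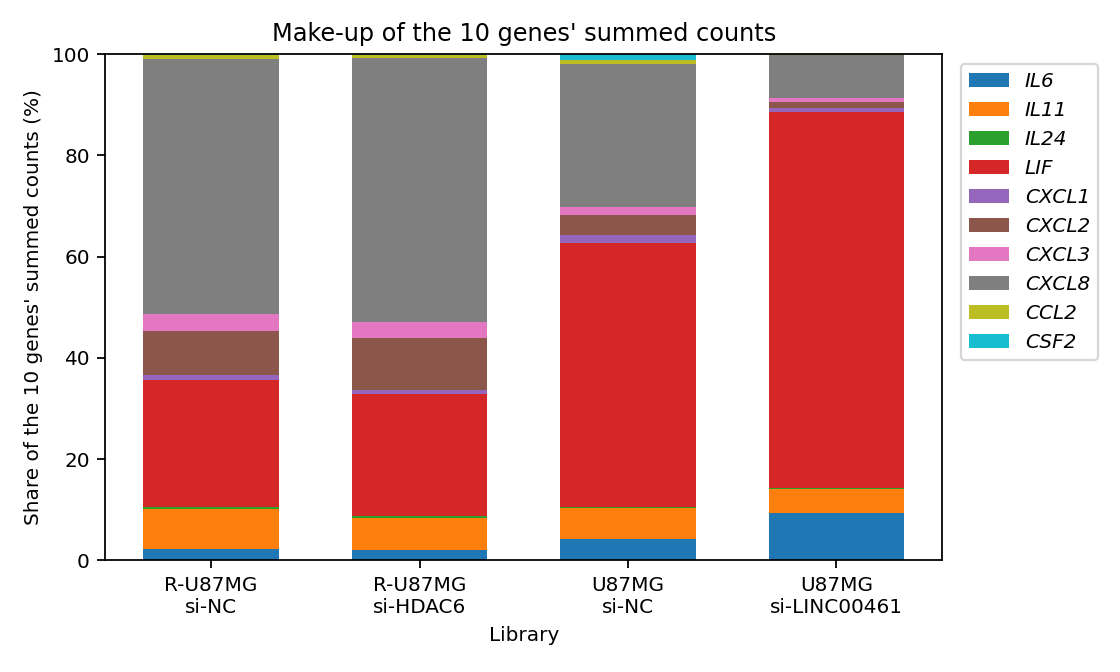
Share (%) of each gene in the summed counts of the 10 genes, 1 bar per library. *CXCL8* is the largest part in both R-U87MG libraries (50.4% and 52.1%) and *LIF* in both U87MG libraries (52.2% and 74.2%).

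**Figure D4:**
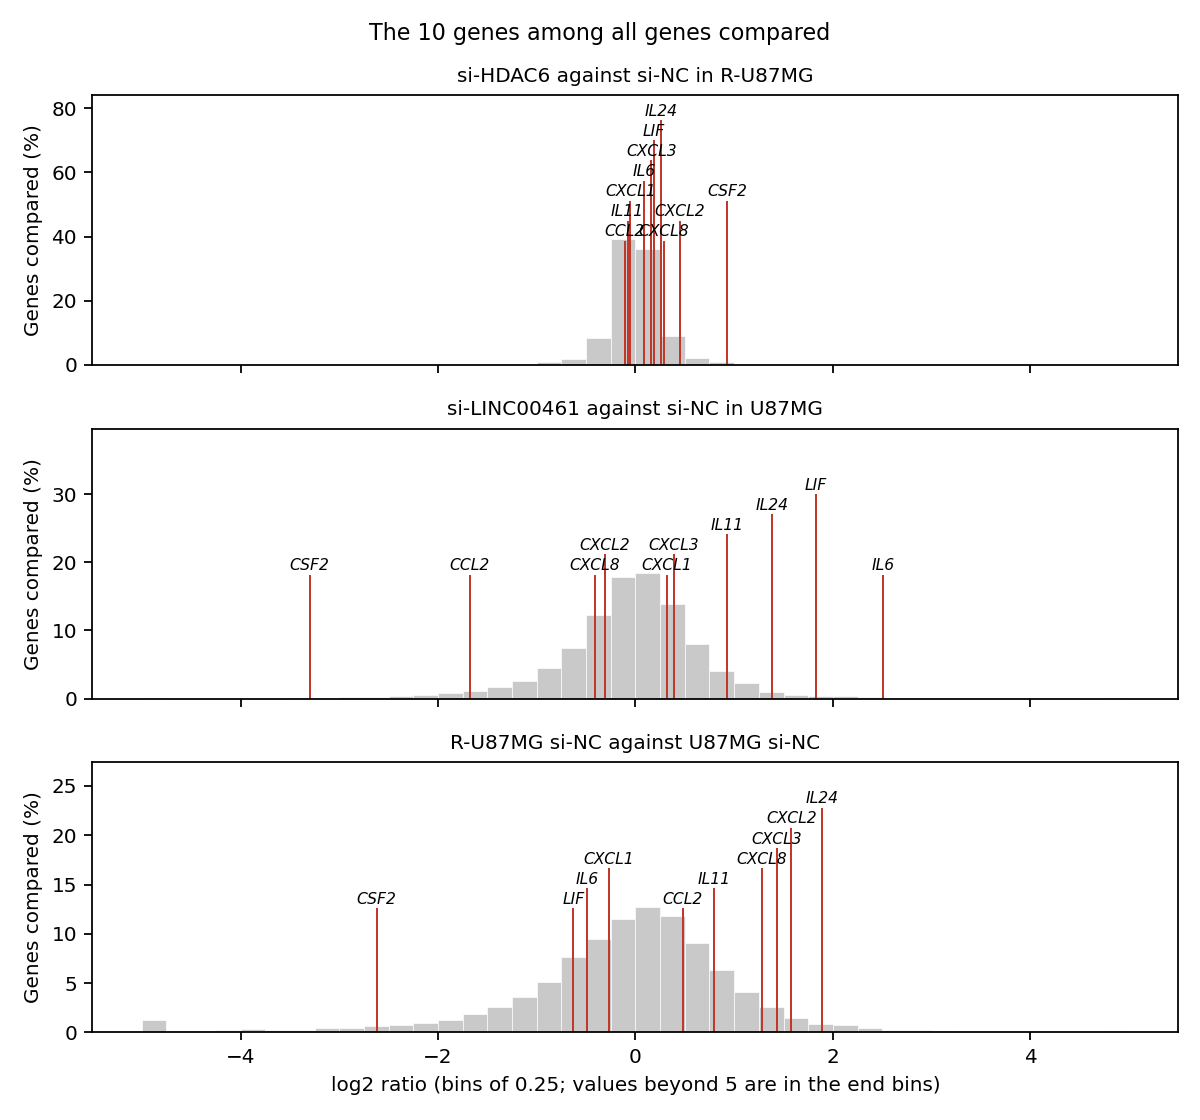
Distribution of the log2 ratios of all genes compared in each comparison (grey bars, % of 13120, 13210 and 13349 genes; values beyond 5 are in the end bins), with red lines at the ratios of the 10 genes. Under si-HDAC6 the red lines lie between −0.11 and 0.93 (*CSF2*), whereas *IL6* at 2.51 and *CSF2* at −3.30 lie at opposite ends under si-LINC00461. *CSF2* reached 1 CPM in 1 library only of each pair.

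The 3′ UTRs of these genes hold many AU-rich letters. In the coding transcript with the longest coding part, the pentamer ATTTA occurred 6 times in *IL6*, 9 in *IL11*, 3 in *IL24*, 7 in *LIF*, 5 in *CXCL1*, 10 in *CXCL2*, 7 in *CXCL3*, 9 in *CXCL8*, 1 in *CCL2* and 8 in *CSF2*. Per kb of 3′ UTR this was 2.18 to 25.2 copies, beside a median of 1.32 over 19039 protein-coding genes. *CSF2*, with the shortest of these 3′ UTRs at 318 bases, had the highest density (25.2 per kb), and *IL6* (14.0 per kb) and *CXCL2* (13.9 per kb) came next, whereas *LIF* (2.18 per kb) and *CCL2* (2.66 per kb) had the lowest. The longer form TTATTTATT occurred in 7 of the 10 genes (*IL11*, *LIF*, *CXCL1*, *CXCL2*, *CXCL3*, *CXCL8* and *CSF2*) and in 7.14% of all. Whether these letters bear on the ratios of the 10 genes was not tested.

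Of 10 factors that act on the stability of cytokine mRNAs, none was at least 2-fold higher or lower in either siRNA comparison. Their median ratio was −0.03 under si-HDAC6 and −0.17 under si-LINC00461. The si-HDAC6 ratios ran from −0.20 for *ZFP36L2* to 0.26 for *ZFP36*. Under si-LINC00461 the highest ratio was 0.13 (0.03 to 0.23) for *ZC3H12A*, which encodes the nuclease regnase-1, and the lowest −0.47 (−0.54 to −0.40) for *HNRNPD*, which encodes the binding protein AUF1. Against U87MG, the R-U87MG control had *ZFP36L2* higher at 1.64 (1.44 to 1.85) and *ZC3H12A* lower, at −1.21 (−1.33 to −1.08), but within 2-fold with total counts (−0.94).

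The receptors of the gp130 cytokines were expressed in the same cultures. *IL6ST*, the shared chain, had 10320, 7611, 12187 and 13321 counts in R-U87MG si-NC, R-U87MG si-HDAC6, U87MG si-NC and U87MG si-LINC00461. *LIFR* had 1285, 847, 2220 and 1858 counts, and *IL11RA* had 60, 73, 140 and 74, not all of them whole numbers before rounding. *IL6R*, which binds interleukin-6 itself, had 742, 630, 735 and 1585 counts and a ratio of 1.30 (1.17 to 1.42) under si-LINC00461.

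Among 13 compared genes of these receptors and of JAK and STAT3 signalling, 2 were at least 2-fold higher and 1 lower under si-LINC00461. The shares over all genes were 5.42% and 8.17%, and the median of the list was −0.07. Besides *IL6R*, *STAT3* was higher (2721 and 5053 counts, ratio 1.08 (1.01 to 1.15)), and *PIAS3*, an inhibitor of STAT3, was lower at −1.05 (−1.21 to −0.90). No gene of this list passed 2-fold under si-HDAC6, where the ratios ran from −0.66 (−0.78 to −0.54) for *STAT3* to 0.67 (0.16 to 1.19) for *IL11RA*. In R-U87MG against U87MG, *OSMR*, a receptor of oncostatin M (−2.25), *SOCS3*, a feedback inhibitor of gp130 signalling (−1.77), and *IL11RA* (−1.21, but −0.95 with total counts) were lower and the median of the list was −0.60. Of 7 further genes of gp130-related cytokines or their subunits, *EBI3* was higher under si-LINC00461 (18 and 39 counts, ratio 1.28 (0.46 to 2.20), above 1 CPM in the si-LINC00461 library only) and *CLCF1* in R-U87MG against U87MG (381 and 1073 counts, ratio 1.5 (1.33 to 1.67)). Under si-HDAC6 the ratios of the compared genes of this list ran from −0.36 for *CNTF* to 0.25 for *CLCF1*. *OSM*, which encodes the gp130 cytokine oncostatin M and lies 16.0 kb from *LIF*, had at most 2 counts.

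The receptors of the CXC chemokines, CCL2 and GM-CSF were at or near 0, whereas a chain of the interleukin-24 receptor was measured. *CXCR1*, *CXCR2* and *CCR2* had at most 1 count in any library, and *CSF2RA* and *CSF2RB* at most 4. *IL20RB* had 105, 103, 193 and 67 counts, above those of *IL24* in each library, and a ratio of −1.33 (−1.76 to −0.93) under si-LINC00461, and its ratios were 0.36 (−0.04 to 0.77) under si-HDAC6 and −0.87 (−1.23 to −0.52) in R-U87MG against U87MG. The chain *IL10RB*, with 755 to 1263 counts, stayed between −0.14 and 0.25 in the 3 comparisons, whereas the partners of *IL20RB*, *IL20RA* (at most 3 counts) and *IL22RA1* (18, 6, 15 and 2 counts), were low. The neighbours of *IL24* in the interleukin-10 family, *IL10*, *IL19* and *IL20*, had at most 1 count. Of the 15 chemokine receptors, 2 were compared under si-LINC00461, of which *ACKR3*, a scavenging receptor of CXCL12, was lower (158 and 23 counts, ratio −2.57 (−3.29 to −1.96)) and *CCR1* was within 2-fold (0.22). In R-U87MG against U87MG both were lower, at −3.91 for *ACKR3*, which reached 1 CPM in U87MG only, and −2.73 for *CCR1*, and under si-HDAC6 *CCR1* alone was compared, at −0.41 (−1.01 to 0.15).

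Other chemokines and colony-stimulating factors did not all follow the 10 genes. *CCL20*, which attracts cells through CCR6, had 29 counts in U87MG si-NC and 481 in U87MG si-LINC00461, a ratio of 4.22 (3.70 to 4.83), and was the only compared gene of 12 further CC and CX3C chemokines in that comparison. Of 12 further CXC chemokines, 2 were compared there, *CXCL5* at 1.30 (0.96 to 1.67) and *CXCL14* at 0.63 (−0.27 to 1.57). *CSF3*, the gene of G-CSF, had 6033 and 36095 counts and a ratio of 2.77 (2.73 to 2.81), opposite to *CSF2*, and its ratio was 0.59 (0.52 to 0.66) under si-HDAC6 and −0.87 (−0.93 to −0.81) in R-U87MG against U87MG. *CSF1* had a ratio of 0.91 (0.83 to 0.99) and its receptor *CSF1R* of −0.66 (−0.96 to −0.37) under si-LINC00461. In R-U87MG against U87MG, *CXCL5* was lower (−3.71) and *CCL26* higher (1.48 (0.40 to 2.81), 9 and 26 counts). Each of these reached 1 CPM in 1 of the libraries only, and without such genes neither list had a call there. Under si-HDAC6 no CXC chemokine of this list passed the filter and *CCL26* was at −0.69 (−1.85 to 0.31).

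**Figure D5:**
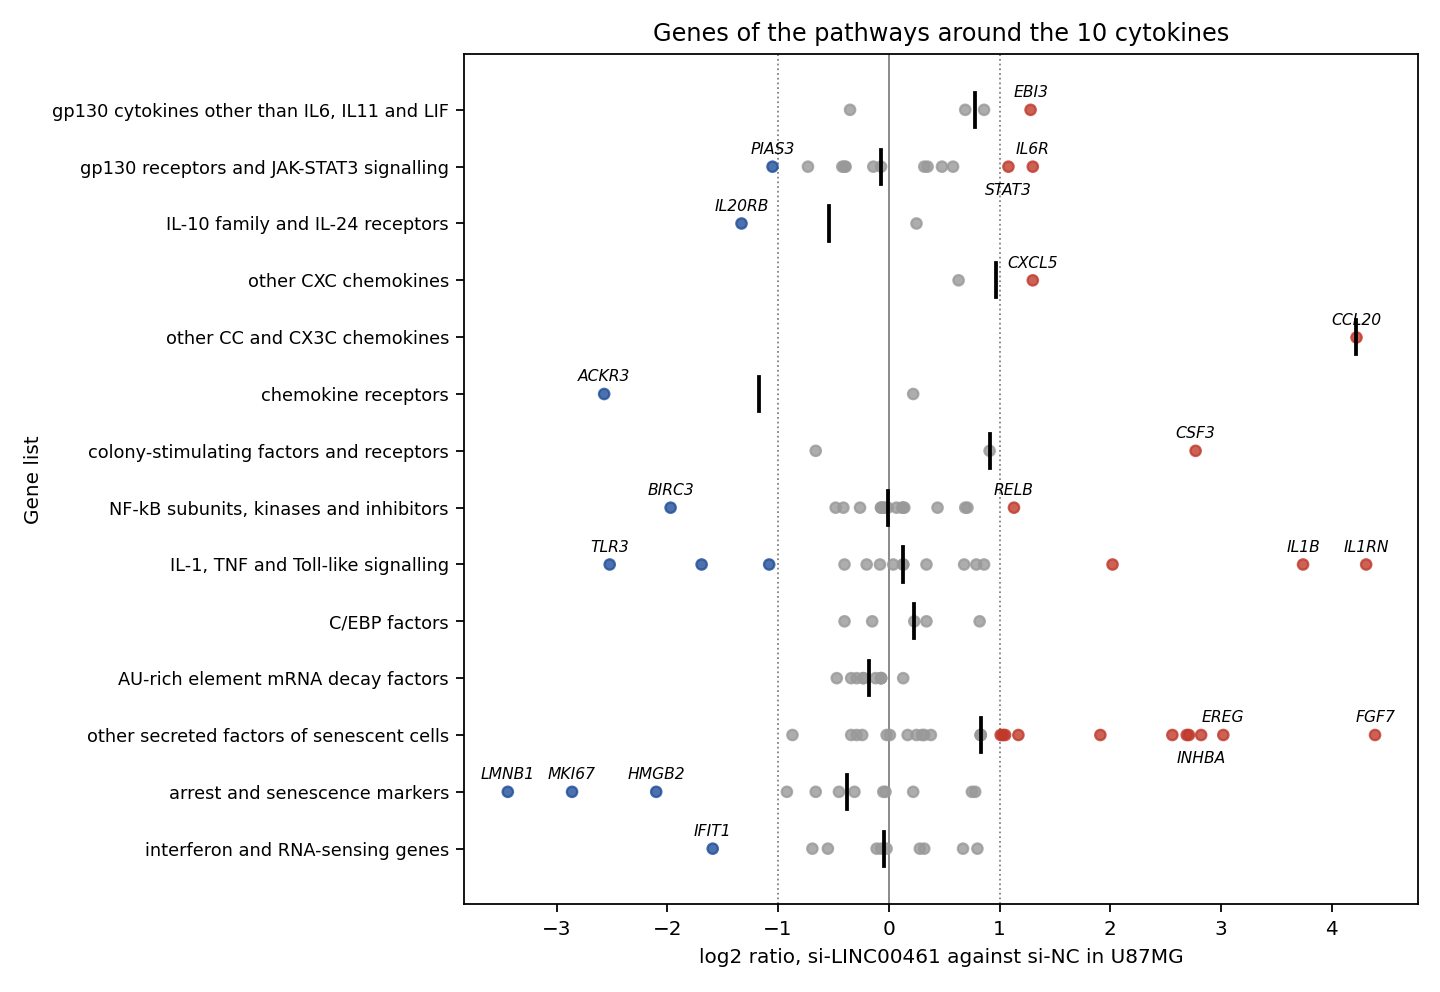
The log2 ratio under si-LINC00461 of each compared gene in 14 lists around the 10 cytokines, 1 point per gene, red at least 2-fold higher, blue at least 2-fold lower, with black bars at the list medians and the genes farthest from 0 named. NF-kB genes centre on a median of −0.01, whereas *IL1RN* (4.31), *FGF7* (4.39) and *CCL20* (4.22) are at the high end and *LMNB1* (−3.44) is at the low end.

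Of 17 compared NF-kB subunits, kinases and inhibitors, 1 was at least 2-fold higher and 1 lower under si-LINC00461, with a median of −0.01. The shares over all genes were 5.42% and 8.17%. *RELB*, a subunit of the noncanonical pathway, was higher at 1.13 (0.93 to 1.34), and *BIRC3*, a ubiquitin ligase and a target of the pathway, lower at −1.97 (−2.51 to −1.49). *NFKBIA* and *TNFAIP3*, inhibitors that NF-kB itself induces, were within 2-fold there, at −0.07 (−0.14 to 0.01) and −0.41 (−0.56 to −0.26). Under si-HDAC6 no gene passed 2-fold, and the median was 0.19. Of the 17 intervals there, 8 lay above 0 and 1 below, beside 13.8% above and 16.4% below over all genes, with *RELB* highest at 0.63 (0.39 to 0.88) and *CHUK*, a kinase of the pathway, lowest at −0.53 (−0.70 to −0.37). Between the lines, *TNIP1* (−1.89), *BCL3* (−1.39) and *NFKB2* (−1.16, but −0.90 with total counts) were lower in R-U87MG and the median was −0.23.

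Upstream of NF-kB, *IL1RN* and *IL1B* had the ratios farthest from 0 under si-LINC00461. *IL1B*, which encodes interleukin-1 beta, had 4161 and 48845 counts, a ratio of 3.74 (3.69 to 3.79), and *IL1RN*, its secreted receptor antagonist, had 135 and 2366, a ratio of 4.31 (4.07 to 4.58). *IL1A*, which encodes interleukin-1 alpha, and *IL1R1*, a chain of its receptor, were within 2-fold at 0.68 (0.48 to 0.88) and 0.86 (0.79 to 0.93). *TNFRSF1B*, a TNF receptor, was higher at 2.02 (1.95 to 2.10), whereas *TLR3* (−2.52, above 1 CPM in U87MG si-NC only), *IL1RAP*, a chain of the interleukin-1 receptor (−1.69), and *TLR4* (−1.08) were lower. The 16 compared genes had a median of 0.13, and *TNF* had no count in any library. Under si-HDAC6 none of 14 passed 2-fold, with *IL1B* highest at 0.55 (0.40 to 0.70) and *IL1R1* lowest at −0.32 (−0.44 to −0.21). Between the lines, 0 were higher in R-U87MG and 5 of 15 lower, beside 11.2% and 15.0% of all genes. Among the 5 were *TLR4* (−3.68, above 1 CPM in U87MG only), *IL1B* (−2.59, 4161 and 687 counts), *TLR3* (−1.99) and *IL1RAP* (−1.88). *CXCL2*, *CXCL3* and *CXCL8* had the opposite direction in that comparison.

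Of 5 C/EBP factors, which bind promoters such as that of *IL6*, none was called under either siRNA, from −0.40 (*CEBPD*) to 0.82 (*CEBPA*) under si-LINC00461 and from 0.01 (*CEBPD*) to 0.35 (*DDIT3*) under si-HDAC6. The R-U87MG control had *CEBPD* lower at −3.92 (1038 counts in U87MG and 68 in R-U87MG) and *DDIT3* higher at 1.69 (219 and 708 counts).

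Of 25 other factors of senescent cells, mostly secreted, that were compared under si-LINC00461, 20 had a ratio above 0, beside 49.8% of all genes. Among the 25, 11 were at least 2-fold higher and none lower, beside 5.42% and 8.17% of all genes, with a median of 0.83. Without *FGF7*, above 1 CPM in 1 library only, 10 were higher. Those 10 include *ICAM1* (1.17), *MMP14* (1.05) and *PLAUR* (1.03), which encode membrane proteins. The call of *SERPINE2* (1.01) was lost with total counts, DESeq2 size factors or thinned libraries, where its ratio was as low as 0.97. The highest were *FGF7* (18 and 340 counts, ratio 4.39), *EREG* (3.02), *INHBA*, the gene of activin A (2.82), and *MMP1*, a collagenase (2.71). Under si-HDAC6, *INHBA* was higher (38 and 59 counts, ratio 1.02 (0.41 to 1.65)), a call lost with a pseudocount of 5 (0.97) or a mean CPM of at least 5, the other 24 were within 2-fold, and the median was 0.06. Between the lines, 3 were higher in R-U87MG (*AREG*, 3 and 41 counts and above 1 CPM in R-U87MG only, *FGF2*, and *MMP1* at 1.03, but 0.99 under an alternative) and 11 lower, beside 11.2% and 15.0% of all genes, with *IGFBP3* (109623 and 988 counts, ratio −6.79), *ICAM1* (−4.08), *IGFBP4* (−3.52) and *STC1* (−3.07) at the low end and a median of −0.70. That list thus had mostly lower values where *CXCL2*, *CXCL3* and *CXCL8* had higher ones.

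Genes of arrest and senescence were compared as well. Under si-LINC00461, *LMNB1*, a lamin whose loss marks senescent cells, had 1020 and 82 counts (ratio −3.44 (−3.79 to −3.12)), *MKI67*, a marker of dividing cells, 9253 and 1117 (−2.86 (−2.95 to −2.77)), and *HMGB2* 1455 and 298 (−2.10 (−2.29 to −1.92)). The other 9 compared genes were within 2-fold, among them *CDKN1A*, the p21 cell cycle inhibitor, at −0.03 (−0.09 to 0.03), and *CDKN2A*, the gene of p16, had at most 9 counts in any library. Under si-HDAC6 none of 12 passed 2-fold, from −0.38 (*LMNB1*) to 0.23 (*CDKN1B*). *CDKN1B* was the 1 gene called in R-U87MG against U87MG, lower at −1.45 (−1.57 to −1.34). Whether dividing and arrested cells in these cultures differ in their cytokine mRNA was not tested.

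Interferon and RNA-sensing genes were also followed. *IFNB1* had no count in any library, and 1 of 10 compared genes (*IFIT1*, 128 and 37 counts, ratio −1.59 (−2.17 to −1.07)) was called under si-LINC00461, with a median of −0.05. Under si-HDAC6 *IFIT1* was again the 1 gene called (34 and 12 counts, ratio −1.07 (−2.20 to −0.13)). It reached 1 CPM there with si-NC only, so that it was compared through the library in which it was high, and the call was lost with a pseudocount of 5 (−0.81) or a mean CPM of at least 5. Between the control libraries *DDX58* was higher (1.09), and *IFIH1* (−1.99), *IFIT1* (−1.89) and *IRF1* (−1.21, but −0.94 with total counts) were lower in R-U87MG.

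Genes that overlap the 10 on the opposite strand had few counts, except 1. *AC073072.1*, which shares 428 exon bases with *IL6*, had at most 3 counts, and *LIF-AS1* and *AC004264.1*, which share exon bases with *LIF*, at most 6. *STEAP1B* shares 46 exon bases with *IL6* and had 368, 249, 82 and 76 counts in R-U87MG si-NC, R-U87MG si-HDAC6, U87MG si-NC and U87MG si-LINC00461, an order unlike that of *IL6*. Whether strand was used in the counting is not given in the sources used here.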

How the data were processed

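RNA-seq libraries were made with a strand-specific kit, 1 per condition. Per the submitters' processing notes, bcl2fastq, Trimmomatic 0.36 and HISAT2 were used with GRCh38.p13; the counting program is not given in the sources used here. The authors deposited estimated counts of Ensembl genes, each library scaled by its own factor (0.869, 1.15, 0.939 and 1.06). Each value was divided by its factor and rounded, 93.4 to 94.1% of values above 0 having been within 0.02 of a whole number. Symbols, positions and transcripts came from GENCODE 29, promoters from RefSeq. Ratios used TMM (edgeR 4.0.16, R 4.3.3) over each pair of libraries and a pseudocount of 0.5, with Clopper-Pearson 95% intervals, and CPM the library total; Python 3.11.15 and scipy 1.17.1 were used. The ratios and intervals were tested on simulated Poisson counts with library totals, which left TMM scaling and the recovery of counts untested. All 10 genes are named in every comparison, with the receptors and siRNA targets. From each list at most 4 highest and 4 lowest ratios past 2-fold are named or, with none, its extremes in most cases. Other genes named were chosen after their values were seen. The 10 genes and the lists were chosen with earlier results of these data known. Alternatives were total counts, DESeq2 1.42.0 size factors and upper-quartile scaling, pseudocounts of 0.1 and 5, thinning to the smallest library, other filters and fold thresholds.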

Additional observations from a re-analysis of the deposited data

How the results depend on the processing

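With 1 library per condition, counting error is the only error measured, and genes such as *CSF2*, *IL24* and *CCL2* with 8 to 95 counts had wide intervals. No paired analysis was possible because each condition is 1 library and the labels give no replicate numbers. Of the 200 values of single genes recomputed under other scalings (the authors' own included), pseudocounts or thinning, 1 changed sign, that of *IL6* under si-HDAC6 (0.09, and −0.00 (−0.31 to 0.30) with thinned libraries), and 195 moved by less than their counting interval. The other 5 moved with total counts in R-U87MG against U87MG, to −0.23 (*IL6*), 1.06 (*IL11*, then past 2-fold), −0.36 (*LIF*), 1.84 (*CXCL2*) and 1.54 (*CXCL8*). Under si-HDAC6 a threshold of 1.5-fold gave 1 higher gene, *CSF2*, which reached 1 CPM with si-HDAC6 only. Under si-LINC00461 the 2 lower genes became 0 at a mean CPM of at least 5, 1 with the interval wholly beyond 2-fold and 0 without genes that reached 1 CPM in 1 library only, an alternative added after the data were seen. In R-U87MG against U87MG the 4 higher genes became 1 at 3-fold, and the 1 lower gene became 0 at a mean CPM of at least 5, 2 at 1.5-fold and 0 without genes at 1 CPM in 1 library only. The authors' own scaling, also added after the data were seen, changed no call in the siRNA comparisons. Among the genes of the lists, called or not, the side of the 2-fold threshold was the same under these scalings, pseudocounts and thinning for 123 of 125, 129 of 131 and 114 of 127 genes in the si-HDAC6, si-LINC00461 and R-U87MG comparisons. The 2 exceptions under si-HDAC6, *INHBA* and *IFIT1*, were the only list genes called there, so that both calls were lost with a pseudocount of 5.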
